A study of Mus musculus with 24 samples.

Results

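Hepcidin and the genes that signal to it or carry iron were followed across 24 mouse livers as a set of 10 genes, out of 18820 genes measured. The members were listed by name: the ligand genes Bmp6 and Gdf2, the receptor and co-receptor genes Hjv, Hfe and Tfr2, the BMP target gene Id1, the hepcidin genes Hamp and Hamp2, and the transport genes Slc40a1 and Tfrc. All 10 were found on the array, each with 1 probe set. Levels are log2 expression values from RMA, a method that summarises the probes of an array into 1 value for each probe set. Such values compare livers for 1 gene, and were not used to rank genes against each other.

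Hepcidin is a peptide hormone made by hepatocytes that binds ferroportin, the cellular iron exporter, and causes its degradation, so that less iron enters the blood. Hepatocytes set its transcription mainly through BMP signalling: BMP6 from sinusoidal endothelium and other ligands bind receptors together with the co-receptor hemojuvelin, SMAD proteins carry the signal to the nucleus, and HFE and transferrin receptor 2 report on iron bound to transferrin. Interleukin-6 acts beside this through STAT3 in inflammation.

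The study compared livers lacking the c-Jun N-terminal kinases JNK1 (Mapk8) and JNK2 (Mapk9), or NEMO (Ikbkg), a subunit of the kinase that activates NF-kB, with 3 livers in each of 8 groups. At 52 weeks of age, untreated NEMO/JNKΔhepa triple knockout livers (NEMO/JNK) stood against control livers. After 40 days of diethylnitrosamine (DEN), a liver carcinogen, and after 28 days of bile duct ligation (BDL), which blocks bile flow, JNKΔhepa double knockout livers (JNK) stood against control livers given the same injury. At 8 weeks of age, untreated NEMO/JNK1Δhepa double knockout livers (NEMO/JNK1) stood against NEMO single knockout livers (NEMO). Per the labels' protocols, deletion used Cre recombinase driven by the albumin promoter, which acts in hepatocytes. Whether other liver cells, such as biliary epithelium, kept the floxed genes was not tested. JNK2 was deleted in the whole body of JNK mice, on a C57BL/6 background, and NEMO f/f mice, whose NEMO gene is floxed but intact, are named among the controls. The labels give no age for the DEN and BDL animals.

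Mapk9 read between 2.82 and 3.51 in all 18 livers outside the 8-week experiment, the 9 livers labelled control among them, and between 7.99 and 8.53 at 8 weeks. The control groups thus shared the low Mapk9 signal of the JNK livers, and the genotype differences at 52 weeks, after DEN and after BDL were taken between livers alike in this. Mapk8 was lower in every JNK-deleted liver than in the livers it was compared with in the same experiment. Limma called it at 52 weeks (-0.87, adjusted p = 0.00259) and after BDL (-1.02, adjusted p = 0.0299). It was not called after DEN (-0.64, adjusted p = 0.985) or at 8 weeks (-0.61, adjusted p = 0.602), where no member was called either. Ikbkg fell by 0.85 at 52 weeks (limma, adjusted p = 0.0043), to 6.43 to 6.47 in NEMO/JNK livers. It read 6.80 to 7.26 in NEMO livers and 6.76 to 7.02 in NEMO/JNK1 livers at 8 weeks, where no liver with intact NEMO was compared. After BDL, Ikbkg was also lower in every JNK liver than in controls, though their label names no NEMO deletion. That difference was -0.37 and was not called (limma, adjusted p = 0.145). JNK DEN replicate 3 had an Xist level of 10.38, against 2.16 to 3.87 in the other livers, and its Y-linked Kdm5d was 3.66. The labels give no sex. Differences of single members that include this liver are mostly given with and without it, and those of single pathway genes only with it. Hepatocyte markers averaged 12.05 to 12.42 in every liver, over 7 such genes, and the ranges of all groups overlapped. The highest value of any probe set was 13.48, and how far this compressed differences in these markers was not tested. In bulk tissue, fewer cells of a type and less RNA per cell cannot be told apart.

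At 52 weeks Id1 (3.61-fold), Slc40a1 (1.6-fold) and Bmp6 (1.59-fold) rose in NEMO/JNK livers, and no member was called lower, though centring each array called Hfe and Tfr2 lower. Limma called 3 of 10 members, at an adjusted p under 0.05, where it called 21.5% of all genes and 13.6% as higher, so that this count is no result about the members. The groups did not overlap for 6 members, 4 higher and 2 lower, beside 41.2% of all genes, 20.9% higher and 20.3% lower. The median difference over the 10 members was 0.40 on the log2 scale, and -0.045 over all genes. Centring each array on its median moved the median of all genes to -0.371 and the split of called genes from 2562 higher and 1486 lower to 1570 higher and 8942 lower.

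After BDL, Hamp2 rose 6.43-fold and Gdf2 fell 2.35-fold in JNK livers, and the other 8 members were not called. Background calls were few here, at 1.35% of all genes, of which 0.797% were higher and 0.558% lower. The groups did not overlap for 6 members, 2 higher and 4 lower, against 20.7% of all genes, 9.95% higher and 10.7% lower. Members had a median difference of -0.10, beside -0.002 over all genes.

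After DEN, no member was called by limma, and 0% of all genes were, although 781 genes had an unadjusted p under 0.05. Hamp2 and Tfrc were the 2 members among these. The groups did not overlap for 3 members (Hamp2 and Hfe higher, Bmp6 lower in JNK livers), against 9.47% of all genes, 3.26% higher and 6.21% lower. At 8 weeks, again 0% of genes and no member were called, with 1442 genes and no member at an unadjusted p under 0.05. The groups overlapped for every member at 8 weeks, while 14.4% of all genes did not overlap.

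Setting BDL against DEN livers, which reuses the same 12 arrays, gave no called member in control livers (2.48% of all genes called) or in JNK livers (1.08%). Members with an unadjusted p under 0.05 were Gdf2 in control livers, beside 3604 of 18820 genes, and Tfrc and Hjv in JNK livers, beside 2530. Gdf2 alone did not overlap in control livers, higher after BDL, beside 24.9% of genes and 12.8% as higher. In JNK livers 3 members did not overlap (Tfrc and Hjv higher, Bmp6 lower after BDL), beside 19.9% of genes, 10.5% higher and 9.39% lower. Without JNK DEN replicate 3 the Tfrc difference went from 0.56 to 0.31, that of Hjv from 0.44 to 0.46 and that of Bmp6 from -0.23 to -0.24. The interaction, which takes the JNK difference after DEN from that after BDL, called no member and 0.0478% of genes. Bmp6, Gdf2 and Tfrc had an unadjusted p under 0.05 in it, beside 1338 of 18820 genes.

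**Figure D1:**
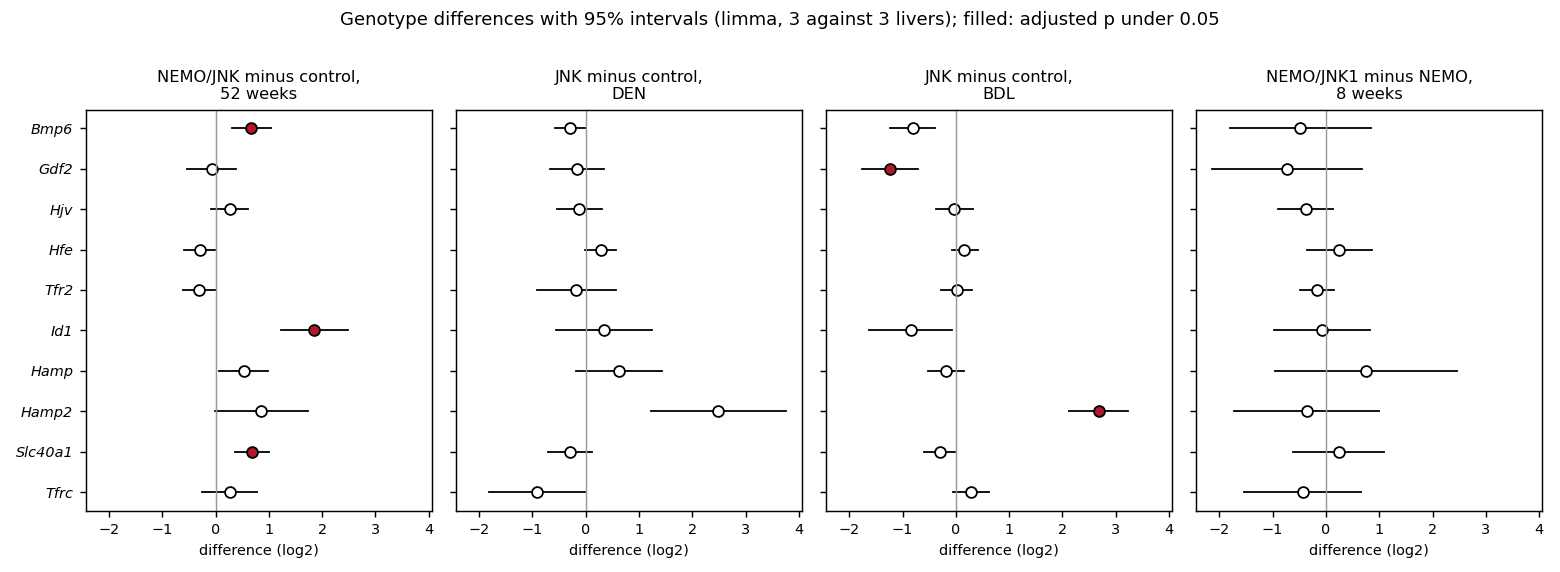
Log2 differences (x axis) for the 10 genes (y axis) in the 4 genotype comparisons, each 3 against 3 livers; points are limma estimates, bars their 95% intervals, and filled points had an adjusted p under 0.05. Filled points stand at Bmp6 (0.67), Id1 (1.85) and Slc40a1 (0.68) at 52 weeks and at Hamp2 (2.68) and Gdf2 (-1.24) after BDL.

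Bmp6 encodes the ligand that most directly links liver iron to hepcidin. At 52 weeks it read 6.50, 6.65 and 6.79 in NEMO/JNK livers and 6.12, 5.65 and 6.16 in control livers. All NEMO/JNK livers were above all controls, and Bmp6 rose by 0.67 (SE 0.16, 95% interval 0.30 to 1.04, limma adjusted p = 0.0191). The call was lost after quantile normalization (0.49, adjusted p = 0.0808), after centring (0.35, adjusted p = 0.127), in 1 model of all 24 arrays (adjusted p = 0.192) and without NEMO/JNK replicate 3 (0.60, adjusted p = 0.0757). Sinusoidal endothelium markers, from the cells that make most BMP6, averaged 7.98 to 8.27 in NEMO/JNK and 8.18 to 8.36 in control livers. Of 8 markers, 3 (Gpr182, Oit3 and Clec4g) were called lower and 0 higher. Differences were negative for 6 of them and positive for 2. The part of these cells in the Bmp6 value was not tested.

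With both injuries the Bmp6 order was the opposite, and no difference was called. After BDL, Bmp6 was 5.70, 5.56 and 5.63 in JNK livers and 6.47, 6.80 and 6.07 in controls. The groups did not overlap, and the difference of -0.81 (95% interval -1.23 to -0.40) had a limma adjusted p of 0.0855. It was called without control replicate 3 (-1.01, adjusted p = 0.0147) and with array weights (-0.83, adjusted p = 0.0367). With the prefix of the mouse identifiers as a block it was -0.43 (adjusted p = 0.362). DEN livers showed less of a gap, with 5.84, 5.90 and 5.84 in JNK and 6.04, 6.33 and 6.08 in control livers. That difference was -0.29 (95% interval -0.58 to 0.00, adjusted p = 0.985), and its contrast with BDL was -0.52 (adjusted p = 0.674). Without JNK DEN replicate 3 these were -0.28 and -0.53. At 8 weeks Bmp6 spread from 6.22 to 8.42 among the 3 NEMO livers and from 6.42 to 7.48 among the NEMO/JNK1 livers, and the difference of -0.48 had a 95% interval of -1.80 to 0.85.

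Gdf2 encodes BMP9, a circulating ligand made by stellate cells that acts on endothelium through the receptor ALK1 and also induces hepcidin in hepatocytes. After BDL it was 7.57, 6.84 and 6.73 in control livers and 5.74, 6.06 and 5.64 in JNK livers. The 2 groups did not overlap, and Gdf2 fell by 1.24 in JNK livers (SE 0.23, 95% interval -1.76 to -0.71, limma adjusted p = 0.0496). Of 14 alternatives, 8 lost this call, with adjusted p between 0.0245 and 0.259 over all of them. Leaving out control replicate 1 gave -0.97 (adjusted p = 0.0637), and blocking on the identifier prefix gave -0.92 (adjusted p = 0.259). Control replicates 1 and 2 carry another identifier prefix than the other BDL livers.

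In the BDL comparison the stellate cell markers moved with Gdf2. After BDL all 8 of them had negative differences, with a median of -0.48, and 1 was called: Lrat, the retinyl ester synthase of these cells, fell by 1.49 (limma adjusted p = 0.0105). Their mean per liver was 7.58 to 8.13 in control BDL livers and 7.20 to 7.35 in JNK BDL livers, so that the groups stood apart in the markers as in Gdf2. The dimmest marker, Des, still read 5.91 in the control group. At 52 weeks, where Gdf2 differed by -0.07, 3 of the 8 markers were called lower and 1 higher. Their differences were negative for 4 and positive for 4. Their mean per liver was 6.86 to 7.18 in NEMO/JNK and 7.11 to 7.45 in control livers. The part of the stellate cell share in the Gdf2 value was not tested.

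**Figure D2:**
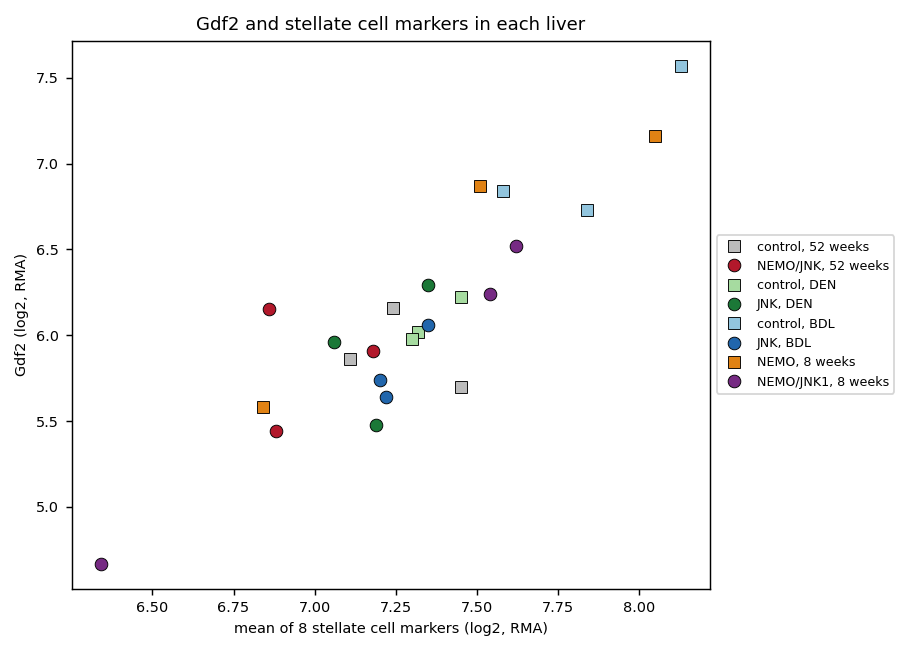
Gdf2 (y axis, log2) against the mean of 8 stellate cell markers (x axis, log2) in each of 24 livers, coloured by group. Gdf2 was lowest, at 4.67, in the liver with the lowest marker mean (6.34, NEMO/JNK1 replicate 3) and highest, at 7.57, in the liver with the highest (8.13, control BDL replicate 1). Livers with close marker means could differ in Gdf2, with 5.70 at a mean of 7.45 (control, 52 weeks, replicate 2) and 6.87 at 7.51 (NEMO replicate 1). No correlation over the 24 livers was computed.

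In the other experiments Gdf2 did not separate the genotypes. At 52 weeks the difference was -0.07 (95% interval -0.53 to 0.38) and after DEN -0.16 (-0.67 to 0.34). The contrast of the JNK differences after BDL and DEN was -1.07 (95% interval -1.82 to -0.33), which limma did not call (adjusted p = 0.545). Without JNK DEN replicate 3 the DEN difference was -0.35 and the contrast -0.89. Within control livers, Gdf2 was 6.02, 5.98 and 6.22 after DEN, below all 3 BDL values, and BDL minus DEN was 0.98 (adjusted p = 0.0691). NEMO livers at 8 weeks gave 6.87, 5.58 and 7.16, and NEMO/JNK1 livers 6.52, 6.24 and 4.67, which overlap. The last of these livers was also lowest for endothelial (7.07), stellate (6.34) and macrophage markers (7.02), and without it the 8-week difference went from -0.73 to -0.16.

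Hjv encodes hemojuvelin, the BMP co-receptor whose loss causes juvenile iron overload, and its levels stayed between 8.27 and 9.82 in all livers. The genotype differences ran from -0.38 at 8 weeks to 0.26 at 52 weeks, and none was called. In JNK livers Hjv was 8.91, 9.13 and 9.09 after BDL and 8.90, 8.27 and 8.63 after DEN. The lowest BDL value was just above the highest DEN value, and the difference of 0.44 (95% interval 0.03 to 0.85) had a limma adjusted p of 0.334. Without JNK DEN replicate 3 it was 0.46.

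Hfe encodes the MHC-like protein mutated in the common form of hereditary haemochromatosis, and varied least between groups, with group means within 0.37. At 52 weeks it was 6.88, 7.24 and 7.10 in NEMO/JNK livers and 7.38, 7.43 and 7.31 in controls. The NEMO/JNK livers were all below the controls, with a difference of -0.30 (95% interval -0.59 to -0.01, limma adjusted p = 0.135). Tfr2, the hepatocyte receptor for iron-loaded transferrin, had 9.12, 9.35 and 9.17 against 9.38, 9.46 and 9.72 in the same livers. It too did not overlap, at -0.31 (95% interval -0.61 to 0.00, adjusted p = 0.142). Centring each array on its median, which lowers the values of NEMO/JNK livers relative to control livers, made both differences -0.63 and called them (adjusted p = 0.00729 for Hfe and 0.00955 for Tfr2). After DEN, Hfe was 7.30, 7.25 and 7.29 in JNK livers and 7.20, 6.91 and 6.90 in controls, a gap of 0.28 without overlap that was not called (adjusted p = 0.985) and was 0.27 without JNK DEN replicate 3.

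Id1 encodes an inhibitor of helix-loop-helix factors that SMAD signalling induces in many cell types, and it had the largest of the 3 rises at 52 weeks. It read 7.79, 7.83 and 7.87 in NEMO/JNK livers and 6.71, 5.73 and 5.49 in controls. The NEMO/JNK values lay within 0.08 of each other and above every control, and Id1 rose by 1.85 (SE 0.28, 95% interval 1.23 to 2.48, limma adjusted p = 0.00213). The call held in all 13 alternatives, with adjusted p between 0.000367 and 0.0108. Biliary epithelium markers rose in the same livers, 7 of 7 with a median of 3.21, from 4.93 to 5.47 per liver in controls to 7.98 to 8.63 in NEMO/JNK livers. Macrophage markers (5 of 8 called higher, 7.54 to 7.89 against 8.10 to 9.73) and proliferation markers (6 of 7 called higher, 4.30 to 5.08 against 5.68 to 6.14) rose too, and the part of these cells in the Id1 rise was not tested.

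Id1 took the other direction after BDL without being called. It was 6.39, 5.75 and 6.03 in JNK livers and 7.74, 6.58 and 6.40 in control livers. The groups just failed to overlap, and the difference of -0.85 (95% interval -1.63 to -0.07) had a limma adjusted p of 0.304. It was -0.43 without control replicate 1, the highest of these livers, and -0.34 (adjusted p = 0.818) with the identifier prefix as a block. Over 8 groups, the mean of NEMO/JNK livers at 52 weeks, 7.83, led the next, 6.91 in control BDL livers, by 0.92, more than the SD of either group (0.04 and 0.73). All other neighbours in the Id1 order differed by less than the larger of their SDs.

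Hamp encodes the active hepcidin of the mouse and Hamp2 a close relative that arose by duplication on chromosome 7. The sequences are shown because the BDL comparison separated the 2 genes: each is the run of 130 bases before the annotated start in RefSeq (GRCm38.p6, minus strand), chr7:30944030-30944159 for Hamp and chr7:30924182-30924311 for Hamp2, with the BMP-responsive element or its aligned bases and the STAT site in capitals.
Hamp: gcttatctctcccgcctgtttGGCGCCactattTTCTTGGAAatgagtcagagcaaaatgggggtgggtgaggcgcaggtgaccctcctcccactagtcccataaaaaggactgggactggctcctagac
Hamp2: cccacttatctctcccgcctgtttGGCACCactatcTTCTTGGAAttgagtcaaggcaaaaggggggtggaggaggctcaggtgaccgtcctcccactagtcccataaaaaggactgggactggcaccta
The first capitals are GGCGCC in Hamp, the motif of its BMP-responsive element, and the aligned bases in Hamp2 differ by G25A, counted from the first printed Hamp base. The second capitals are TTCTTGGAA, a STAT site, found in both. Of 133 aligned positions 115 were identical (86.5%), with 12 substitutions and 6 gapped positions. GGCGCC, searched on both strands, occurred in 11.9% of 32851 RefSeq promoter windows of 300 bases, and TTCTTGGAA in 0.417%. Windows were given for 7 of the 10 members, and among these GGCGCC occurred in 1 further member, Tfrc. A match describes the letters and is not evidence of binding.

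Hamp was near the top of the array's range, up to 12.44 where the highest value of any probe set was 13.48, and how far this compressed its differences was not tested. At 52 weeks it was 12.21, 12.44 and 12.37 in NEMO/JNK livers and 12.09, 12.03 and 11.32 in controls. The groups did not overlap, and the difference of 0.53 (95% interval 0.06 to 0.99) was not called by limma (adjusted p = 0.1). It was 0.28 without control replicate 3 and 0.20 after centring each array. JNK and control livers overlapped with both injuries, at 0.63 (95% interval -0.18 to 1.43) after DEN and -0.18 (-0.53 to 0.16) after BDL. The control DEN livers ranged from 10.78 to 12.20 and the JNK DEN livers from 12.08 to 12.38. The DEN difference was 0.24 without control replicate 3, the liver at 10.78, 0.95 without control replicate 1 and 0.67 without JNK replicate 3. The BDL difference was -0.06 without JNK replicate 3.

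Hamp2 behaved differently after BDL. It was 8.58, 8.38 and 8.83 in JNK livers and 6.46, 5.75 and 5.53 in controls, while Hamp was 12.13, 12.16 and 11.78 against 12.41, 12.02 and 12.19. Hamp2 was far higher in every JNK liver, whereas the Hamp values were mixed. Hamp2 rose by 2.68 (SE 0.24, 95% interval 2.13 to 3.24, limma adjusted p = 0.00292), and kept its call in all 14 alternatives, with adjusted p between 0.00177 and 0.0239. Blocking on the identifier prefix gave 3.07 (adjusted p = 0.0134). The probe letters were not used here, and how far either probe set also binds RNA of the other gene was not tested.

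After DEN, Hamp2 was not called. JNK livers were 7.38, 8.13 and 9.65 and controls 6.19, 5.94 and 5.57. Every JNK liver was above every control, and the difference of 2.49 (SE 0.53, 95% interval 1.22 to 3.76) had a limma adjusted p of 0.985, in a comparison where no gene was called. The value of 9.65, the highest of all 24 livers, belongs to replicate 3 with the high Xist level, and without it the difference was 1.86. The JNK differences after BDL and DEN differed by 0.20 (95% interval -1.22 to 1.61, adjusted p = 0.965), and by 0.83 (adjusted p = 0.714) without JNK DEN replicate 3. Neither value shows that they are alike. Control BDL and control DEN livers had Hamp2 means of 5.91 and 5.90.

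At 52 weeks NEMO/JNK livers had Hamp2 at 8.12, 7.96 and 7.69. Control values were 6.28, 8.08 and 6.81, of which replicate 2 lay among the NEMO/JNK livers. The difference of 0.86 (95% interval -0.01 to 1.74) was not called by limma (adjusted p = 0.147), and without control replicate 2 it was 1.37 and called (adjusted p = 0.00329). At 8 weeks Hamp2 read 5.32 to 7.52 in NEMO and 5.34 to 6.55 in NEMO/JNK1 livers, with a difference of -0.36 (95% interval -1.72 to 1.00).

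**Figure D3:**
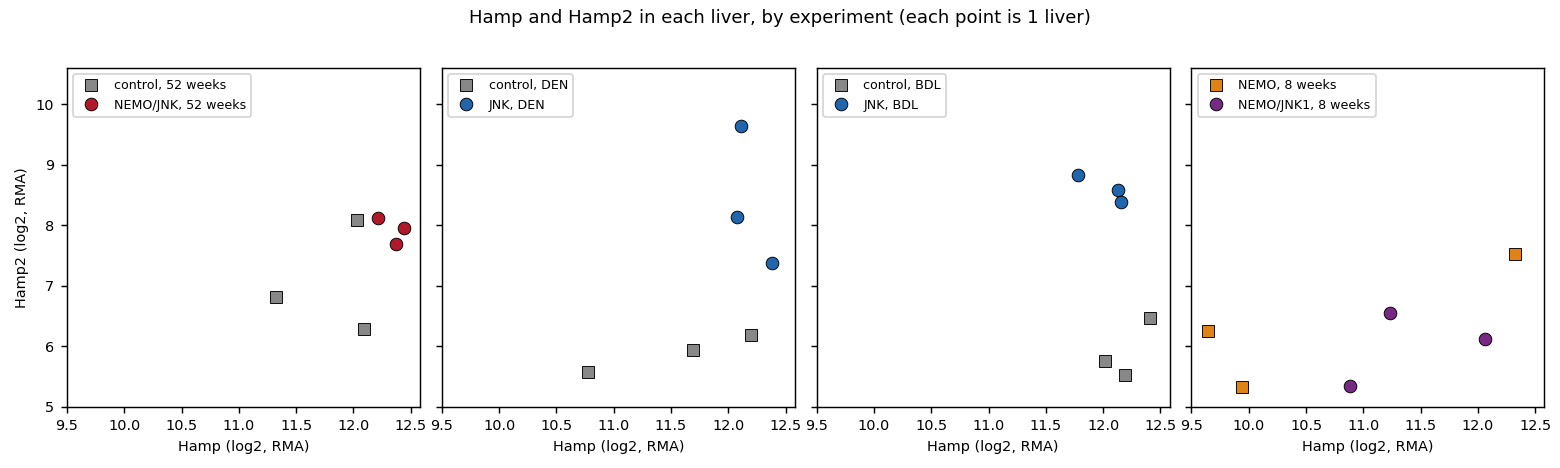
Hamp (x axis, log2) and Hamp2 (y axis, log2) in each liver, with 1 panel for each experiment and 1 point for each liver. After BDL the JNK livers stand at Hamp2 values of 8.38 to 8.83 above the controls at 5.53 to 6.46, while the Hamp values of both groups lie between 11.78 and 12.41.

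Slc40a1 encodes ferroportin, the exporter that hepcidin acts on, and is strongly expressed in Kupffer cells and also in hepatocytes. At 52 weeks it was 9.96, 10.27 and 9.95 in NEMO/JNK livers and 9.46, 9.47 and 9.21 in controls. No NEMO/JNK liver overlapped the controls, and Slc40a1 rose by 0.68 (SE 0.14, 95% interval 0.37 to 1.00, limma adjusted p = 0.00916). The call was lost after centring (0.36, adjusted p = 0.0665) and in 1 model of all 24 arrays (adjusted p = 0.0551). Of 8 Kupffer cell and macrophage markers, 5 rose in the same comparison, with a median difference of 1.08 over the list (Cd68 1.76, C1qa 1.32), and their part in the Slc40a1 rise was not tested. After BDL, Slc40a1 was 9.84, 9.85 and 9.91 in JNK livers and 10.14, 9.98 and 10.39 in controls. All JNK values were lower, by -0.30 on average (95% interval -0.59 to -0.01, adjusted p = 0.321), beside macrophage markers that overlapped at 8.77 to 8.99 and 8.72 to 8.89.

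Tfrc encodes transferrin receptor 1, the uptake receptor whose messenger RNA is stabilised when cells lack iron. No genotype difference was called. After DEN it was 5.99, 6.18 and 5.35 in JNK livers and 6.03, 6.77 and 7.46 in controls. The groups overlapped narrowly, and the difference of -0.91 (95% interval -1.81 to -0.02, limma adjusted p = 0.985) was -0.67 without JNK DEN replicate 3. After BDL the JNK livers were 6.36, 6.45 and 6.38 and the controls 6.29, 6.24 and 5.80. Here the JNK livers were all higher, by 0.29 (95% interval -0.05 to 0.62, adjusted p = 0.427). It was 0.13 without control replicate 3 and 0.60 (adjusted p = 0.127) with the identifier prefix as a block. The contrast of the 2 differences was 1.20 (95% interval 0.24 to 2.17, limma adjusted p = 0.604), and 0.96 without JNK DEN replicate 3. The DEN control with the highest Tfrc, replicate 3, also had the highest mean of 4 erythroid markers, 5.86 against 4.63 in both other controls, and the part of red cell precursors was not tested.

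**Figure D4:**
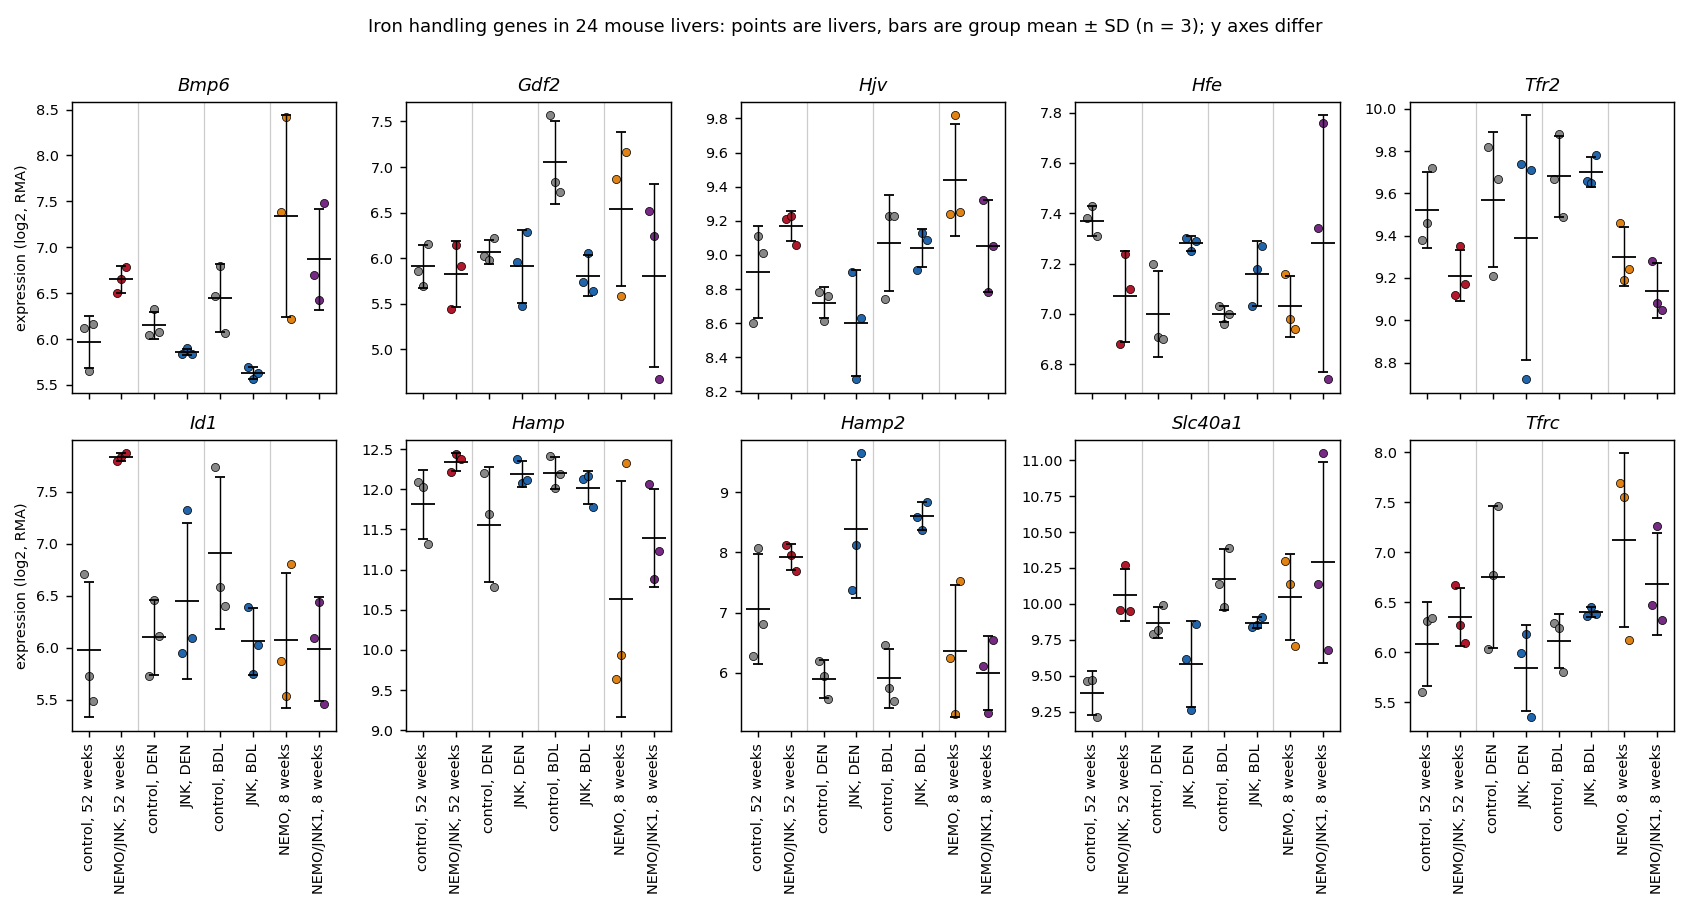
Levels (y axis, log2 from RMA, scaled separately for each gene) of the 10 genes in the 8 groups (x axis); points are livers and bars the group mean and SD of 3 livers. Id1 stands at 7.79 to 7.87 in NEMO/JNK livers at 52 weeks, and Hamp2 at 8.38 to 8.83 in JNK livers after BDL.

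At 8 weeks Hamp varied widely within the NEMO group. It was 9.64, 9.94 and 12.32 in NEMO livers and 12.06, 10.88 and 11.23 in NEMO/JNK1 livers. Replicates 1 and 2 of the NEMO group were the lowest of all 24 livers for Hamp and, with replicate 2 of NEMO/JNK1, held 3 of the 4 highest Tfrc values: 7.69, 7.55 and 7.26. The same NEMO livers had Bmp6 at 7.38 and 8.42, while replicate 3 had 6.22 for Bmp6 and 6.12 for Tfrc. The Hamp difference between genotypes was 0.75 (95% interval -0.95 to 2.46, limma adjusted p = 0.795) and ran from 0.26 without NEMO replicate 1 to 1.60 (adjusted p = 0.448) without NEMO replicate 3. Slc40a1 was highest in NEMO/JNK1 replicate 2, at 11.05, which also had the highest mean of macrophage markers in the series, 10.66. All NEMO livers carried 1 identifier prefix and all NEMO/JNK1 livers another, so that prefix and genotype cannot be told apart.

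Within groups, Hamp2 (pooled SD 0.73) and Hamp (0.65) were more variable than 98.1% and 97.2% of all genes. Id1, Gdf2, Tfrc and Bmp6 followed, with pooled SDs of 0.55, 0.54, 0.51 and 0.47. Hfe (0.21) and Hjv (0.24) stood near the middle, at the 55.1 and 66.6 percentiles. Ordering the 8 group means of each gene left few neighbours that differed by more than both SDs. Among 7 neighbouring pairs for each gene this held for 1 pair of Id1 and for 1 pair of Bmp6, the JNK DEN mean of 5.86 over the JNK BDL mean of 5.63, and for no pair of the other 8 genes.

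Other genes of BMP and SMAD signalling moved in both directions at 52 weeks. Of 21 measured, 3 rose: Smad7, the inhibitory SMAD, by 0.86, the ligand Bmp4 by 0.73 and Acvrl1, the ALK1 receptor of endothelium, by 0.65. Tmprss6, the hepatocyte protease that cleaves hemojuvelin, fell by 0.61 (9.37 against 9.98, limma adjusted p = 0.00773). The median over the list was 0.22. On the interleukin-6 arm, with 11 genes measured, Il22ra1, a subunit of the interleukin-22 receptor, rose by 1.69 and Socs3, the STAT3 feedback inhibitor, by 1.60. Crp, an acute phase gene, fell by 0.92.

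Genes of uptake and export called at 52 weeks were all higher, 3 of 14: Steap2, a metalloreductase, by 0.99, Scara5, a ferritin receptor, by 0.59 and Cp, the ferroxidase ceruloplasmin, by 0.40. Among 9 genes of storage and iron regulatory proteins, Fbxl5, the iron-sensing part of a ubiquitin ligase, rose by 0.52 and Aco1, iron regulatory protein 1, fell by 0.87. The ferritin subunits Fth1 (0.06) and Ftl1 (-0.20) were not called. Of 18 genes of haem handling, 4 were called higher and 5 lower. By smallest p these began with Flvcr1, a haem exporter (0.94), Alas1, the first enzyme of haem synthesis in liver (1.22), Urod, a later enzyme (-0.66), and Slc48a1, a haem transporter of endosomes (0.81). In all, 13 of the 73 pathway genes measured were called higher and 8 lower, beside 2562 higher and 1486 lower of 18820 genes (21.5% called), so that these counts are no result about the lists. Centring each array gave 7 higher and 25 lower.

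After BDL, 3 of the 73 pathway genes were called between JNK and control livers, where 1.35% of all genes were called. Smad9, which encodes SMAD8, fell by 1.46 (4.45 against 5.91, limma adjusted p = 0.00292). Crp rose by 0.76 and Il6 by 0.61, the latter from 2.09 to 2.70, low on an array that spans 0.68 to 13.48. Of the 21 BMP and SMAD genes, 17 had negative differences, with a median of -0.09 beside -0.002 over all genes. Leaving out a single library moved the calls among pathway genes to 0 higher (without control replicate 1 or any 1 of the JNK replicates) or 2 lower (without control replicate 2).

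BDL against DEN livers showed the siderophore-binding lipocalin Lcn2 and the haem oxygenase Hmox1 called in each genotype. In control livers Lcn2 rose by 1.14, Hmox1 by 0.91 and the BMP target Id3 by 1.08, and Blvrb, a biliverdin reductase, fell by 0.87. In JNK livers Lcn2 rose by 1.70, Hmox1 by 1.25, the iron importer Slc11a2 by 0.92, lactoferrin (Ltf) by 1.74 and the acute phase gene Saa2 by 2.82. Without JNK DEN replicate 3, the pathway genes called in JNK livers were 3 higher and 1 lower instead of 5 and 0. In control livers the 3 rises became 0 when the identifier prefix was a block.

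No pathway gene was called by limma after DEN, at 8 weeks or in the interaction. The smallest p of the uptake list after DEN was that of Slc25a37, the mitochondrial iron importer mitoferrin 1, with -0.54 (adjusted p = 0.985), and that of the BMP list was Id3 with 0.65. At 8 weeks the haem list began with Hp, the haemoglobin-binding haptoglobin (0.84, adjusted p = 0.544), and Cpox, an enzyme of haem synthesis (-0.73, adjusted p = 0.548). In the interaction Id3 had -1.44 (adjusted p = 0.331) and Slc11a2 0.83 (adjusted p = 0.485).

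The genes most like Hamp, Bmp6 and Tfrc were sought by Pearson's r over the 24 arrays, after the mean of each experiment was taken off, among genes with a mean log2 level of at least 6. Such an r describes arrays that share genotype groups and tissue makeup. For Bmp6 they were Man1a2 (0.91), Cct2 (0.91) and Dstn (0.88), and r over the 18 arrays outside the 8-week experiment was 0.86, 0.92 and 0.81. For Hamp they were Ccng1 (0.78), Exoc4 (0.71) and Ppp1r12b (0.67), with 0.61, 0.51 and 0.26 outside 8 weeks, so that the likeness of the last gene lay mostly in the 8-week livers. For Tfrc they were Gapvd1 (0.80), Atp8b1 (0.78) and Slc25a37 (0.73), with 0.67, 0.71 and 0.61.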

How the data were processed

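Each of 24 livers was hybridised to 1 Affymetrix whole-transcript array. Per the submitters' processing notes, the authors ran RMA, and the deposited values are the resulting log2 levels. Its program, its chip definition and which arrays were normalised with each other were not given in the sources used here. Detection calls were not used here, and precision is limited by the number of arrays.

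The table held 35556 probe sets, of which 21218 had 1 gene symbol, 1881 several and 12457 none. Entrez identifiers of 21185 matched the RefSeq gene table (GRCm38.p6), which changed 0 symbols. These stood for 18820 genes, and a gene with several probe sets, as 1386 had, took the one with the highest mean. All were tested without a filter.

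Comparisons were made with limma 3.58.1 in R 4.3.3 (lmFit and eBayes, two-sided, Benjamini-Hochberg over all genes, called at an adjusted p under 0.05), with the 6 arrays of each comparison and 12 for the interaction. An exact permutation test of 3 against 3 livers cannot go below 0.1. The mouse identifiers differ, so replicates were separate animals. Same-numbered replicates were not paired: their deviations correlated at -0.07 to 0.36, and not every pair of any comparison exceeded 0.1. Of 3 knockout replicates, the correlation was highest with the own number for 3 at 52 weeks, 2 after DEN, 2 after BDL and, for NEMO/JNK1, 0 at 8 weeks. A batch shared by replicate number was thus not excluded, and the number was used as a block among the alternatives. The procedure was tested on simulated data with 200 changed genes of 18820. At 52 weeks 67% of changes of 1 (log2) were called and 92% of changes of 2. These shares were 54% and 86% after DEN, 68% and 94% after BDL, and 42% and 79% at 8 weeks. The changed genes were drawn at random from all genes. Hamp2, Hamp, Id1, Gdf2, Tfrc and Bmp6 stood at the 92.5 to 98.1 percentiles of SD within groups. Shares for genes as variable as these were not computed.

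The members, the 5 pathway lists and the 7 marker lists were chosen with earlier results of these data known. At most 4 called genes of a pathway list were named for each comparison, by smallest p, or up to 2 where none was called. Fth1 and Ftl1 were named outside this rule, after their values were seen. Promoter windows are RefSeq's (GRCm38.p6). Alternatives were quantile normalization, centring arrays on their median, leaving out dim genes, 1 model of all arrays, array weights and the mean of probe sets. Further ones were the replicate number or the identifier prefix as a block, and leaving out each replicate.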

Additional observations from a re-analysis of the deposited data

How the results depend on the processing

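Of 1000 values of the 70 member differences under the alternatives, 923 kept direction and side of the threshold, 14 lost a call, 9 gained one and 54 changed sign. Members called higher at 52 weeks went from 3 to 1 with centring and with 1 model of all arrays, and those called lower from 0 to 2 with centring. After BDL the 1 member called lower became 0 with all arrays, with the replicate block (Gdf2 adjusted p = 0.0879) or with the identifier prefix block. That count became 2 with array weights, and 0 to 2 when leaving out 1 replicate. BDL minus DEN gained 1 member in control livers with array weights (Gdf2 1.08, adjusted p = 0.046; 0 to 1 when leaving out 1 replicate) and 2 in JNK livers (Tfrc 0.93, adjusted p = 0.0119; Hjv 0.41, adjusted p = 0.05). The replicate block changed no other member call. Over the alternatives, pathway genes called at 52 weeks ran from 7 to 15 higher and 4 to 25 lower (13 and 8 as reported), after BDL from 0 to 3 and 0 to 2 (2 and 1), and in BDL minus DEN from 0 to 4 and 0 to 3 in control (3 and 1) and from 0 to 18 and 0 to 3 in JNK livers (5 and 0). All genes called ran from 2693 to 10512 at 52 weeks (4048 as reported), from 58 to 559 after BDL (255), from 0 to 2 after DEN (0) and from 0 to 57 at 8 weeks (0), and in BDL minus DEN from 15 to 858 in control (466) and from 1 to 2482 in JNK livers (204).

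No difference that changed sign had been called. With centring these were Tfrc and Hjv at 52 weeks (both -0.06), Tfr2 after BDL (-0.01), and Hamp2 (-0.10) and Tfr2 (-0.00) in BDL minus DEN of control livers, with Slc40a1 (0.03) in the interaction. Quantile normalization turned Hamp2 (-0.08) in control BDL minus DEN and Slc40a1 (0.00) in the interaction. Array weights turned Gdf2 (0.09) and Tfr2 (0.10) after DEN, Hjv (0.05) after BDL, Id1 (0.06) at 8 weeks, Hfe (0.03) in control and Hamp2 (-0.74) in JNK BDL minus DEN, and Hamp2 (-0.88) and Tfr2 (-0.12) in the interaction. The identifier prefix block turned Hamp2 (-0.37), Bmp6 (-0.09) and Tfr2 (-0.08) in control BDL minus DEN and Hjv (-0.07) in the interaction. It could not be fitted in JNK BDL minus DEN, where all livers share 1 prefix, or at 8 weeks.

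Leaving out 1 replicate gave ranges across 0 for Gdf2 at 52 weeks (-0.24 to 0.12). After DEN this held for Gdf2 (-0.35 to 0.05), Id1 (-0.08 to 0.61), Tfr2 (-0.35 to 0.16) and Hjv (-0.27 to 0.05), and after BDL for Tfr2 (-0.08 to 0.12) and Hjv (-0.19 to 0.06). At 8 weeks it held for Hamp2 (-0.88 to 0.22), Bmp6 (-1.03 to 0.06), Id1 (-0.34 to 0.29) and Slc40a1 (-0.14 to 0.54). In control BDL minus DEN it held for Hamp2 (-0.26 to 0.20), Hfe (-0.06 to 0.09) and Tfr2 (-0.06 to 0.24), and in JNK livers for Hamp2 (-0.30 to 0.84), Gdf2 (-0.31 to 0.09), Id1 (-0.65 to 0.04) and Tfr2 (-0.03 to 0.48). The interaction ranges were Hamp2 -0.31 to 0.83, Tfr2 -0.14 to 0.37, Slc40a1 -0.18 to 0.12 and Hjv -0.07 to 0.24. The cause of these shifts was not tested, and 3 livers in each group limit what can be seen.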
